A study of Mus musculus with 6 samples.

Results

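Interferon-stimulated genes (ISGs) are the genes that cells switch on after interferon binds its receptor. They were described here in ILCPs, the progenitors in bone marrow that give rise to innate lymphoid cells. The set held 32 genes chosen by symbol from the known interferon response, and all 32 had a row in the deposited table of 16383 genes. The cells came from Rag1-cre;ET-2 mice of the C57BL/6 strain, in which Cre is made from Rag1 regulatory sequence and cells that express the ET-2 transgene carry GFP. ET-2 is known as a fusion protein that joins activation domains of the E protein E47 to the DNA-binding part of TAL1, built to raise E protein activity. The sort took cells that were Lin-, Flt3- and CD25- and also IL7Rα+, α4β7+ and CD90+, split into a GFP+ and a GFP- fraction, with 3 libraries of each. Each replicate number marks 1 pool of 4 to 5 mice, from which both fractions were taken, and the GFP- cells carry the same alleles as the GFP+ cells. No group had Rag1-cre without ET-2, so the effect of ET-2 and a history of Rag1-driven Cre cannot be told apart.

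Type I interferons signal through the receptor chains IFNAR1 and IFNAR2 to the kinases JAK1 and TYK2, which lead to assembly of the complex ISGF3, with STAT2 and IRF9 among its subunits. ISGF3 binds the interferon-stimulated response element (ISRE) in the promoters of its targets. Interferon gamma signals through IFNGR1 and IFNGR2 to the gamma-activated site (GAS). Many ISGs are also transcribed at a low tonic level without infection, and resting lymphocytes and progenitors keep part of the program on.

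The libraries held 10432461 to 15042354 estimated counts in the GFP+ group and 11680512 to 19038554 in the GFP- group, and 27 of the 32 ISGs were above 0 in all 6 libraries. GFP+ replicate 3 stood apart: it had the fewest genes above 0, 11278 against 12601 to 15030 in the other libraries, and ribosomal protein genes took 8.57% of its counts against 1.70% to 3.30%. The summed level of 9 B and plasma cell genes was 24285 CPM there (CPM being counts relative to a TMM-scaled library size) against 440 to 1511 CPM in the other libraries. For 4 neutrophil genes the sum was 742 CPM there against 0.33 to 166 CPM. In replicates 1, 2 and 3, 9 monocyte and macrophage genes summed to 1391, 720 and 1913 CPM in GFP+ ILCPs. Their GFP- sums were all lower, at 631, 524 and 651 CPM, with 6 of the 9 genes higher and 3 lower in GFP+ ILCPs. The part of such cells in the ISG levels was not tested. The sort genes Il7r and Thy1 were present in every library, at 1259 to 2679 and 184 to 509 CPM. The 6 ILCP and ILC regulator genes Gata3, Tcf7, Id2, Tox, Rora and Pdcd1 summed to 2633 CPM in GFP+ replicate 3. In the other libraries they summed to 4307 to 8176 CPM. By edgeR 1 of the 6 was higher and 5 were lower in GFP+ ILCPs, and 0 passed the test. Flt3, sorted against, stayed at or below 2.57 CPM, but Il2ra, which encodes the CD25 sorted against, reached 2032 CPM in GFP+ replicate 3 and 151 to 396 CPM elsewhere. Tcf3, the gene of E47, had a mean of 92.5 ± 23.5 CPM in the GFP+ libraries and one of 122 ± 9.87 CPM in the others (SD, n = 3 each), and counts per gene do not separate transgene RNA from the RNA of Tcf3 itself.

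A part of the promoters of these genes holds a sequence that the choice by symbol did not read. ISGF3 is known to act through that sequence, the ISRE, so an excess in genes chosen from the interferon response is no independent finding. RefSeq promoter windows of GRCm38.p6, from 250 bases before to 50 bases after each start site, were at hand for 25 of the 32 ISGs and were searched on both strands for the ISRE core, GAAA and GAAA with any 2 bases (NN) between. It was found in 14 of these 25 genes (56%), against 1079 of all 27025 genes with a window (3.99%). In 11 of the 14 it lay wholly before the start site, and in Ddx58, Eif2ak2 and Ifih1 at or after it. The stretches below are shown because they hold the element through which ISGF3 is known to act, each 100 bases long, on the gene's own strand, 5′ to 3′, with the ISRE cores in capitals (written as the reverse complement where the core lies on the other strand).

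Isg15, chr4:156200836-156200935, minus strand: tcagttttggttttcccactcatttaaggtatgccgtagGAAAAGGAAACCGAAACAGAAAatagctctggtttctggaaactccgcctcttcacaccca
Ifit1, chr19:34640749-34640848, plus strand: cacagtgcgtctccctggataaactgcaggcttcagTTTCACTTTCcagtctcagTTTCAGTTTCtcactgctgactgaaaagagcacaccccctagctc
Ifit3, chr19:34583345-34583444, plus strand: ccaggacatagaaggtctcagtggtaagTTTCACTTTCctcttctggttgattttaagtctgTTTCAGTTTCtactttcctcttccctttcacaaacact
Oas1a, chr5:120907526-120907625, minus strand: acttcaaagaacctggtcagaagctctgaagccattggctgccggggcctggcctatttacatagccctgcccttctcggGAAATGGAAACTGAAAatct
Oas3, chr5:120777680-120777779, minus strand: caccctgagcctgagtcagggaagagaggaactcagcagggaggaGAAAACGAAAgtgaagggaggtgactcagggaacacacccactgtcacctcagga
Rsad2, chr12:26456518-26456617, minus strand: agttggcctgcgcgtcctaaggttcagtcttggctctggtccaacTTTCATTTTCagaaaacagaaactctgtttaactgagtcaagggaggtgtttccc
Bst2, chr8:71537545-71537644, minus strand: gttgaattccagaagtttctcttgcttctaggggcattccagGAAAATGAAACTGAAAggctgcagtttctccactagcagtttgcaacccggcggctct

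Isg15 held 3 overlapping cores, Ifit1 and Ifit3 held 2 separate ones each, and Oas1a and Bst2 held 2 overlapping ones, while Oas3 and Rsad2 held 1. The GAS core TTCNNNGAA, which reads the same on both strands, was found in 10 of the 25 genes (40%), against 9.55% of all genes with a window. It overlapped an ISRE core in 1 gene, Bst2. The E box CANNTG, the element of E proteins, added to the search after the values were seen, was found in 18 of the 25 (72%), close to its share of 75.0% among all genes with a window, so its presence does not set these promoters apart. These matches describe letters in a window and not bound sites. Among the 14 genes with an ISRE core, 6 were higher and 8 lower in GFP+ ILCPs, with a median log2 fold change of -0.11. Among the 11 genes whose windows held none, 8 were higher and 3 lower, with a median of 0.19, and this difference was not tested.

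**Figure D1:**
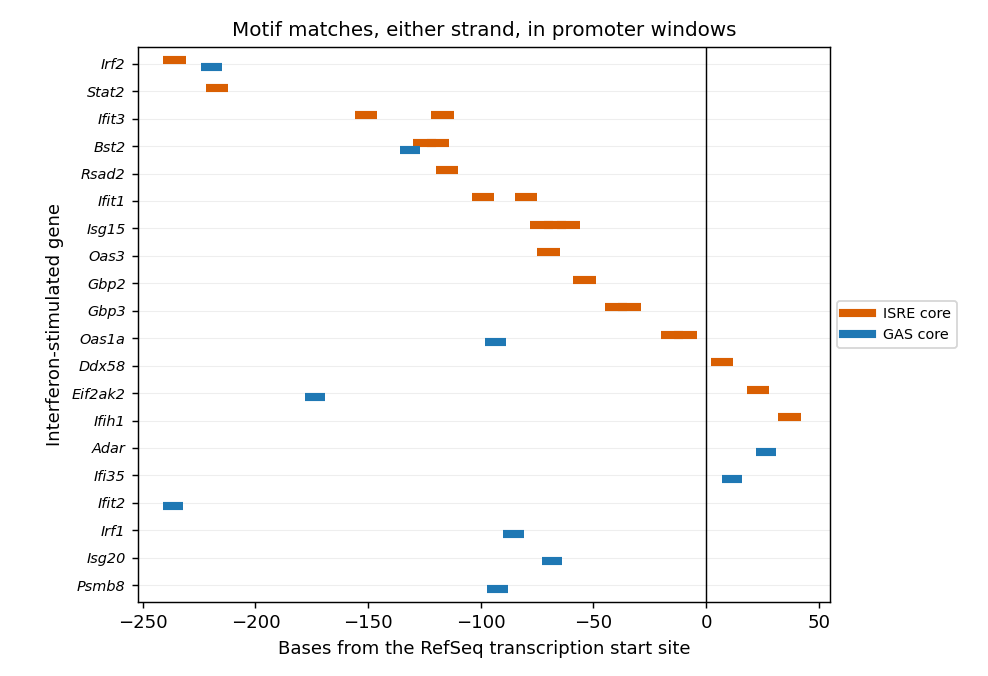
Matches of the ISRE core (orange) and the GAS core (blue) in the promoter windows of the ISGs that held at least 1 of them. The x axis gives bases from the RefSeq start site, and 11 of the 14 genes with an ISRE core had it before that site.

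The question put to the data was whether ISGs differ between GFP+ ILCPs, which express ET-2, and GFP- ILCPs of the same mice. No ISG passed the test. edgeR's quasi-likelihood test, fitted over all 12199 genes that passed its filter and adjusted by Benjamini-Hochberg, called 0 of the 32 ISGs and 0 genes in all (0% of genes), with a smallest adjusted p of 0.998. At an unadjusted p under 0.05 edgeR gave 1 of 32 ISGs, Ifit2, beside 394 of 12199 genes (3.23%). DESeq2 called 0 of the 31 ISGs to which it gave an adjusted p (Oas2 had none), beside 60 of the 14608 genes to which it gave an adjusted p (0.411%). By that tool 3 of the 31 ISGs given an unadjusted p (Ifit2, Dhx58 and Parp9) had one under 0.05. Beside them stood 912 of the 16383 genes fitted, some of which were given no p. The authors' deposited table also lists 0 ISGs among its 98 genes with an adjusted p under 0.05, and its smallest adjusted p for an ISG is 0.275. With the replicate block, which compares the fractions within each pool, edgeR and DESeq2 again called 0 ISGs.

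Of the 32 ISGs, 19 were higher and 13 lower in GFP+ ILCPs, and the median log2 fold change was 0.19, beside 49.0% of genes higher and a median of -0.03 over all genes tested. Without GFP+ replicate 3 the count was 14 higher and 18 lower and the median -0.13. With scaling by library totals the medians were -0.0068 for the ISGs and -0.19 for all genes. All 3 GFP+ libraries lay above all 3 GFP- libraries for 4 ISGs, Ifih1, Ifit2, Parp9 and Parp14 (12.5%), where 3.17% of all genes tested did so. They lay below for 1 ISG, Dhx58 (3.13%), where 6.01% of all genes did so. Since both fractions of a pool were sorted as bulk samples, fewer cells that express a gene and less of its RNA per cell cannot be told apart.

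The size of change that these libraries could show was coarse. The 95% interval of the fold change lay within 4-fold either way for 11 of the 32 ISGs, among them Ddx58, Adar, Irf2, Irf9, Stat2, Nlrc5, Dtx3l and Psmb8. For the other 21 it reached beyond 4-fold in at least 1 direction, and for 0 ISGs did it lie within a log2 change of 1. Intervals were widest for Oas2, Ifit3 and Oas1a, the genes with counts near 0 in several libraries. A missed threshold here does not show that the fractions were alike.

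**Figure D2:**
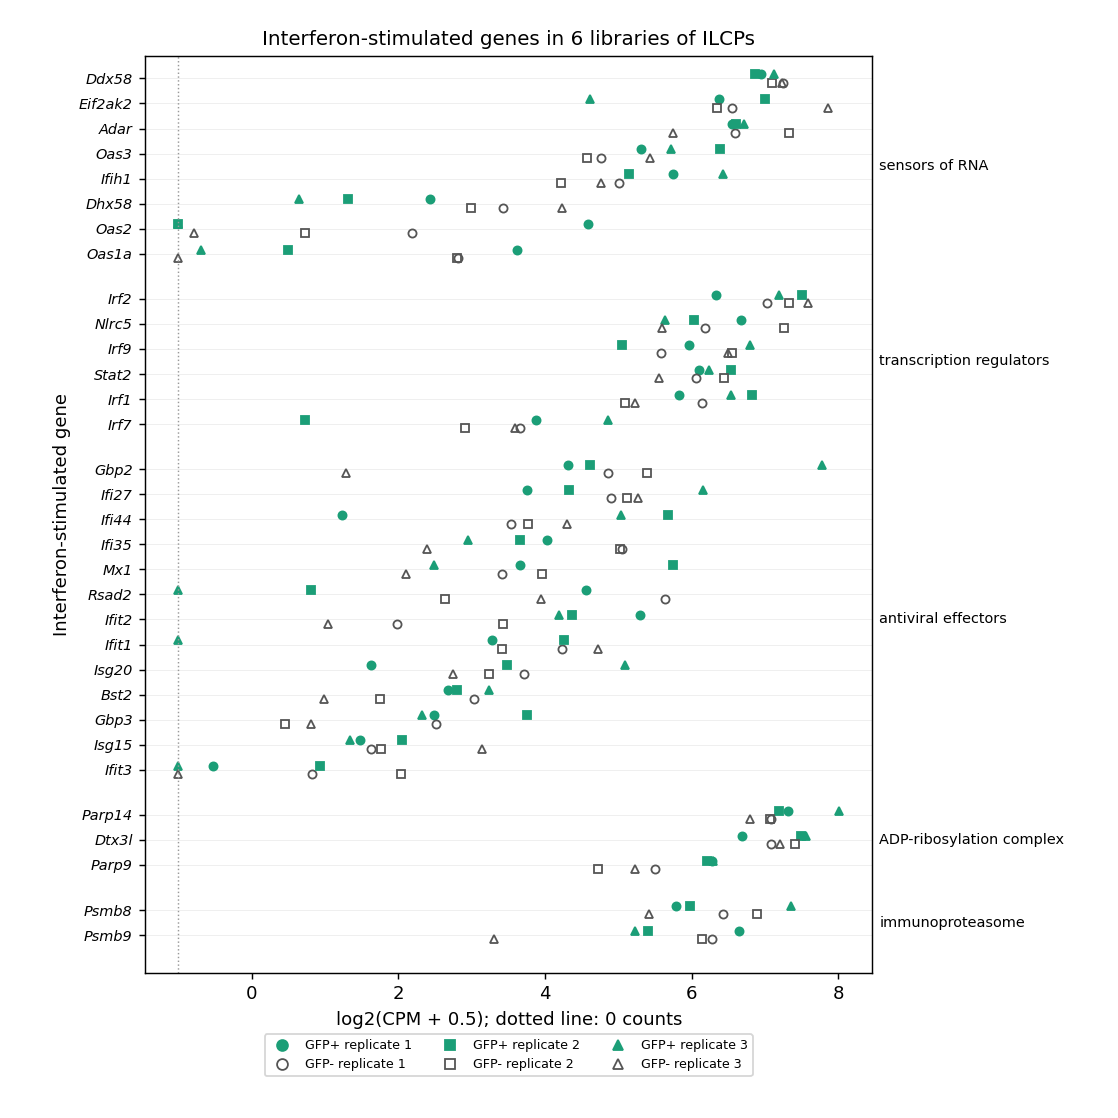
Level of each ISG in each library, as log2(CPM + 0.5), with GFP+ libraries filled and GFP- libraries open, by role and by mean level. Circles, squares and triangles are replicates 1, 2 and 3, and a point on the dotted line had 0 counts, as Ifit1, Rsad2, Ifit3 and Oas2 had in GFP+ replicate 3.

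Per kilobase of annotated exon, a scale on which genes can be compared, Dtx3l, Psmb8, Ifi27, Gbp2, Eif2ak2 and Irf2 had the highest mean levels over the 6 libraries, at 26.8, 25.9, 23.3, 22.2, 20.8 and 20.0 CPM per kilobase. Ifit3, Oas2, Gbp3, Dhx58 and Oas1a had the lowest, at 0.616, 1.07, 1.53, 2.24 and 2.27 CPM per kilobase. The ubiquitin-like modifier Isg15, among the most strongly induced genes of an interferon response, had a mean of 4.80 CPM per kilobase and did not exceed 8.32 CPM in any library. The ISGs together took 0.125% to 0.191% of the counts of a library. The level of Gbp2 rested largely on GFP+ replicate 3, which held 65.5% of its summed CPM.

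Among the sensors of RNA, 3 of 8 were higher and 5 lower, and 0 passed the test. Ifih1 encodes MDA5, which recognises long double-stranded RNA. It stood, for replicates 1, 2 and 3 in that order here and throughout, at 53.2, 34.9 and 85.7 CPM in GFP+ cells against 31.7, 18.1 and 26.8 CPM in GFP- cells. Every GFP+ value lay above every GFP- value, the nearest being 34.9 and 31.7 CPM. Its log2 fold change was 1.18 ± 0.65 (SE; 95% interval -0.27 to 2.63; edgeR adjusted p = 0.998), and it stayed between 0.79 and 1.48 over all alternatives run. Dhx58 encodes LGP2, a relative of RIG-I and MDA5 that lacks their signalling domains and tunes them. It stood at 4.89, 1.99 and 1.07 CPM in GFP+ and at 10.2, 7.45 and 18.3 CPM in GFP- ILCPs, so all GFP+ values lay below all GFP- values. Its log2 fold change was -2.17 ± 1.25 (SE; 95% interval -4.93 to 0.60; edgeR adjusted p = 0.998; DESeq2 adjusted p = 0.534). It ran from -3.02 to -1.36 over all alternatives and was -2.91 without GFP+ replicate 1. The gene overlaps Dhx58os, an annotated antisense gene, and the labels do not say whether strand was kept.

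Ddx58, which encodes RIG-I, the sensor of uncapped RNA ends, was the steadiest of the sensors. It stood at 123, 116 and 138 CPM in GFP+ and at 151, 137 and 149 CPM in GFP- ILCPs, with the highest GFP+ value just above the lowest GFP- value. It was lower in 3 of 3 pools, with a log2 fold change of -0.21 ± 0.45 (SE; 95% interval -1.21 to 0.79). Ddx58 and Ifih1, whose products signal through the same adaptor, thus had fold changes of opposite sign, and neither passed edgeR's test. Adar, the RNA-editing enzyme that keeps cellular double-stranded RNA from being sensed, stood at 92.8, 97.1 and 104 CPM in GFP+ and at 95.5, 160 and 53.4 CPM in GFP- ILCPs. The GFP+ values of Adar lay inside the range of the GFP- values.

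Eif2ak2 encodes PKR, the kinase that stops translation on binding double-stranded RNA. It stood at 82.1, 128 and 24.0 CPM in GFP+ and at 93.4, 80.8 and 231 CPM in GFP- ILCPs, with the lowest and the highest value in the same pool, replicate 3. The products of the OAS genes make 2′-5′ oligoadenylate to activate RNase L. Oas2, Oas3 and Oas1a lie in that order within 177189 bases of chromosome 5. Oas3 stood at 39.0, 83.2 and 52.0 CPM in GFP+ and at 26.8, 23.4 and 42.9 CPM in GFP- ILCPs. All 3 pools had the higher value in the GFP+ fraction. Oas2 and Oas1a did not share that pattern. Oas2 had 23.4 CPM in GFP+ replicate 1, and the other GFP+ libraries had 0 counts, while the GFP- libraries had 4.07, 1.15 and 0.08 CPM, so that 1 library held 81.6% of its summed CPM. Its fitted log2 fold change of 2.14 became -7.60 without that library. Oas1a stood at 11.7, 0.91 and 0.12 CPM against 6.52, 6.44 and 0 CPM, and as one of a family of close copies it may share reads with them.

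The transcription regulators were 3 of 6 higher and 3 lower, and their median log2 fold change was 0.03. Stat2 and Irf9, whose products are subunits of ISGF3, overlapped between the fractions. Stat2 stood at 68.2, 92.2 and 74.6 CPM in GFP+ and at 66.4, 86.8 and 46.3 CPM in GFP- ILCPs. It was higher in 3 of 3 pools, though by only 0.04 and 0.09 log2 units in pools 1 and 2. Irf9 stood at 61.8, 32.5 and 110 CPM against 47.5, 93.2 and 89.5 CPM. The 95% intervals of both lay within 4-fold either way. Irf7, the factor that amplifies type I interferon production, stood at 14.2, 1.16 and 28.4 CPM in GFP+ and at 12.1, 7.03 and 11.6 CPM in GFP- ILCPs, with GFP+ replicates 1 and 3 above the GFP- range and replicate 2 below it.

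Irf1, an activator induced by interferon gamma and needed for natural killer cell development, stood at 56.3, 112 and 92.1 CPM in GFP+ and at 70.1, 33.5 and 36.8 CPM in GFP- ILCPs. The values overlapped in replicate 1, where the GFP- library was higher, and the log2 fold change was 0.89 ± 0.59 (SE; edgeR adjusted p = 0.998). Irf2, which binds the same elements and is known as its antagonist, stood at 79.9, 182 and 145 CPM against 130, 160 and 192 CPM. The log2 fold change of Irf2 was -0.25 ± 0.50 (SE; 95% interval -1.36 to 0.87). Nlrc5, the transactivator of MHC class I genes, stood at 102, 64.7 and 49.3 CPM against 72.0, 153 and 47.8 CPM, with the groups overlapping throughout.

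Of the 13 antiviral effectors 8 were higher and 5 lower, and 1, Ifit2, had an unadjusted p under 0.05 by edgeR. The IFIT genes lie together on chromosome 19, in the order Ifit2, Ifit3 and Ifit1, within 99316 bases, and encode proteins that bind viral RNA or translation factors. Ifit2 stood at 38.7, 20.1 and 17.7 CPM in GFP+ and at 3.43, 10.3 and 1.56 CPM in GFP- ILCPs. Each GFP+ library lay above each GFP- library, and the difference within pools 1, 2 and 3 was 3.32, 0.93 and 3.15 log2 units. The log2 fold change of 2.32 ± 1.04 (SE; 95% interval 0.0079 to 4.63) had an unadjusted edgeR p of 0.0494 and an adjusted p of 0.998, and with the replicate block the unadjusted p was 0.0680. Over all alternatives its log2 fold change ran from 1.70 to 3.49 and its adjusted p from 0.139 to 1.

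Ifit1, in the same cluster, was not higher in every pool. It stood at 9.20, 18.7 and 0 CPM in GFP+ and at 18.2, 10.2 and 25.8 CPM in GFP- ILCPs. A count of 0 in GFP+ replicate 3 allows up to 0.357 CPM there, a limit that covers counting error only. Ifit3 had at most 3.59 CPM in any library and 0 counts in replicate 3 of both fractions, and its reads may be shared with its copy Ifit3b.

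The size of the difference moved with single libraries for Gbp2, Gbp3 and Rsad2, and of these only Gbp2 changed sign in an alternative. Gbp2, a guanylate-binding protein that attacks the vacuoles of intracellular microbes, stood at 19.4, 23.9 and 219 CPM in GFP+ and at 28.6, 41.6 and 1.94 CPM in GFP- ILCPs. Its extremes came from the same pool, and without GFP+ replicate 3 its log2 fold change of 1.86 became -0.16. Gbp3 stood at 5.08, 13.0 and 4.52 CPM against 5.19, 0.87 and 1.24 CPM, with GFP- replicate 1 inside the GFP+ range. Rsad2, which encodes viperin, an enzyme that makes a chain-terminating nucleotide, stood at 22.97, 1.24 and 0 CPM in GFP+ and at 49.3, 5.75 and 14.9 CPM in GFP- ILCPs. Rsad2 was lower in 3 of 3 pools, with a log2 fold change of -1.52 ± 1.65 (SE; edgeR adjusted p = 0.998). That value was -5.13 without GFP+ replicate 1, -0.35 without GFP- replicate 1 and -3.07 with the replicate block. Gbp2, Gbp3, Ifit1, Ifit3, Rsad2 and the other ISGs outside the rule for naming genes were described after their values were seen.

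The remaining effectors showed no common direction. Mx1, a dynamin-like GTPase that blocks influenza viruses, ranged from 5.12 to 53.0 CPM in GFP+ and from 3.81 to 15.0 CPM in GFP- ILCPs, with the higher value in the GFP+ fraction of all 3 pools. C57BL/6 mice are known to carry a defective Mx1 allele, so its RNA is no measure of Mx1 protein. Ifi44 ranged from 1.84 to 50.5 CPM in GFP+ and from 11.1 to 19.1 CPM in GFP- ILCPs. Isg20, an exonuclease, ranged from 2.60 to 33.4 CPM against 6.22 to 12.6 CPM. Ifi27 ranged from 13.0 to 70.6 CPM against 29.4 to 38.0 CPM. For these 3 genes the GFP+ values reached beyond the GFP- values on both sides. Ifi35 ranged from 7.26 to 15.7 CPM against 4.74 to 32.5 CPM, and Isg15 from 2.02 to 3.65 CPM against 2.59 to 8.32 CPM. Bst2 encodes tetherin, which holds budding virions at the cell surface and also marks plasmacytoid dendritic cells, and it ranged from 5.90 to 8.93 CPM against 1.48 to 7.64 CPM. Siglech, a defining gene of plasmacytoid dendritic cells, ranged from 0.36 to 5.73 CPM with GFP and from 4.51 to 5.75 CPM without it. The 9 genes listed for these cells summed to 743, 1868 and 1784 CPM in GFP+ ILCPs. In GFP- ILCPs they summed to 678, 981 and 1066 CPM, less than the GFP+ library in each pool. Of the 8 genes tested, 3 were higher and 5 lower in GFP+ ILCPs. The part of such cells in the levels of Bst2 was not tested.

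**Figure D3:**
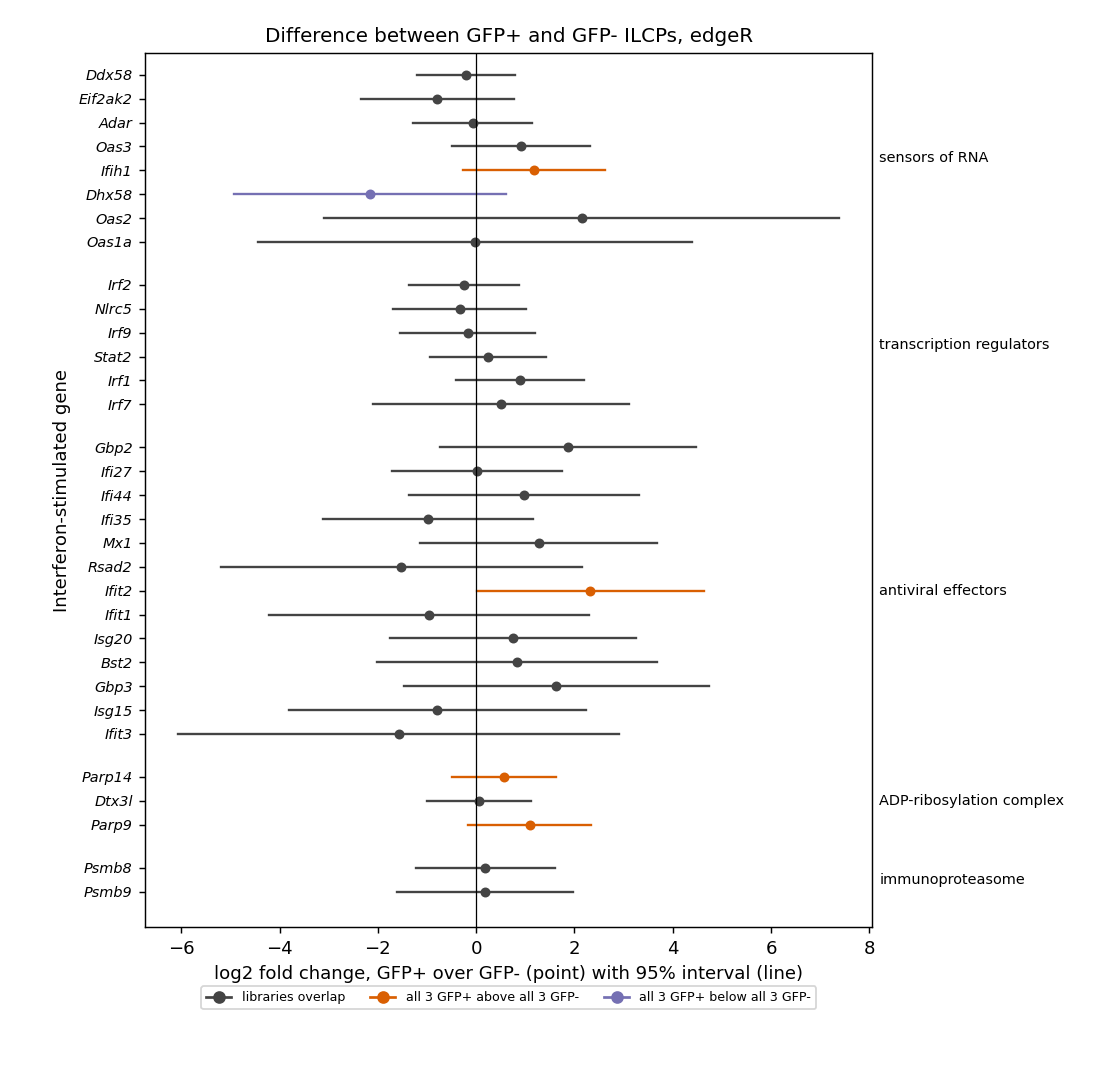
Log2 fold change of each ISG (GFP+ over GFP-, edgeR) with its 95% interval, from 3 libraries per group. Orange marks the 4 genes whose GFP+ libraries all lay above the GFP- libraries, purple the 1 gene where all lay below, and the interval of Ifit2 alone leaves out 0.

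Genes of the ADP-ribosylation complex were all 3 higher, with 0 past the test, though for Dtx3l the log2 fold change was only 0.057 ± 0.48 (SE). PARP9 forms a heterodimer with the ubiquitin ligase DTX3L, and PARP14 is a mono-ADP-ribosyltransferase encoded beside them. Parp9 stood at 77.0, 73.6 and 77.9 CPM in GFP+ and at 44.8, 25.9 and 36.9 CPM in GFP- ILCPs. Its GFP+ values lay close together and well above all GFP- values, at 76.2 ± 2.28 against 35.8 ± 9.50 CPM (SD, n = 3 each). The log2 fold change was 1.09 ± 0.56 (SE; 95% interval -0.16 to 2.33; edgeR adjusted p = 0.998; DESeq2 adjusted p = 0.792), and it kept between 0.90 and 1.32 over all alternatives. Parp14 stood at 159, 145 and 257 CPM against 134, 134 and 110 CPM, again without overlap. The gap between the lowest GFP+ and the highest GFP- value of Parp14 was small, 145 against 134 CPM, and its log2 fold change was 0.57 ± 0.48 (SE).

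Dtx3l, transcribed away from Parp9 on the other strand, stood at 103, 179 and 188 CPM in GFP+ and at 135, 170 and 146 CPM in GFP- ILCPs, and overlapped. The 2 genes share 682 bases of chromosome 16, from 35938470 to 35939151 in GRCm38, where reads without strand cannot be assigned. The log2 ratio of Parp9 to Dtx3l within a library, with 0.5 CPM added to each, was -0.41, -1.28 and -1.26 in GFP+ and -1.58, -2.69 and -1.97 in GFP- ILCPs. The ratios did not overlap between the fractions. They were chosen after the values were seen, with Parp9 already picked for its lack of overlap, and are a description only. An exact permutation of 3 against 3 libraries gave p = 0.1, the smallest it can give, so it cannot decide here.

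The immunoproteasome genes Psmb8 and Psmb9, which replace proteasome subunits so that peptides suit MHC class I, span 19468 bases of the MHC on chromosome 17. Psmb9 overlaps Tap1 there, and the labels do not say whether strand was kept. Psmb8 stood at 54.8, 62.6 and 163 CPM in GFP+ and at 85.9, 118 and 42.3 CPM in GFP- ILCPs. Psmb9 stood at 99.5, 41.8 and 37.1 CPM against 77.2, 70.2 and 9.41 CPM. Both overlapped between the fractions, and both had a log2 fold change of 0.19. GFP- replicate 3 gave the lowest value of each.

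**Figure D4:**
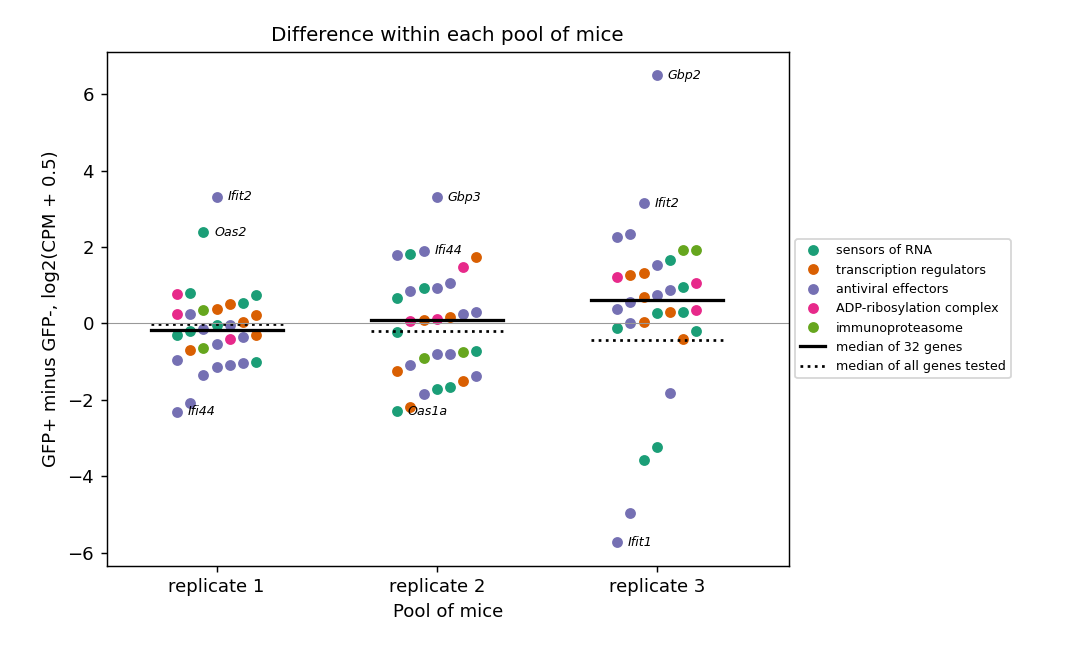
Difference between GFP+ and GFP- libraries of the same pool for each ISG, in log2(CPM + 0.5), coloured by role, with the median of the 32 ISGs (solid line) and of all genes tested (dotted line). The spread widens in replicate 3, where Gbp2 and Ifit1 form the ends.

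The pools did not agree on a direction for the set. In pool 1, 13 ISGs were higher and 19 lower in the GFP+ library, in pool 2 17 and 15, and in pool 3 23 and 8. The median ISG differed by -0.17, 0.08 and 0.62 log2 units in pools 1, 2 and 3, beside -0.0075, -0.19 and -0.42 for all genes tested. The number of ISGs that differed by more than 1 log2 unit within a pool was 8, 16 and 17. Of the 32 ISGs, 7 were higher in all 3 pools (Ifih1, Oas3, Stat2, Ifit2, Mx1, Parp9 and Parp14), beside 8.51% of all genes tested. There were 3 that were lower in all 3 pools (Ddx58, Dhx58 and Rsad2), beside 14.9% of all genes tested. GFP+ replicate 3 gave the highest value of 11 ISGs and the lowest of 6, and GFP- replicate 3 the highest of 5 and the lowest of 12. A tie at 0 was counted for 1 library only. In GFP+ replicate 3, Gbp2, Psmb8 and Ifi27 were at their highest, while Ifit1, Ifit3, Rsad2 and Oas2 had 0 counts. That library is the one with the high immunoglobulin, ribosomal protein and Il2ra values given above, and their part in the ISG values was not tested.

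The wider pathway was described from lists, and 0 of its genes passed edgeR's test. Of 9 interferon ligand genes looked for, 3 had a row, and Ifna2 and Ifnk did not exceed 1 CPM in any library. Ifng, the gene of interferon gamma, stood at 0.38, 1.99 and 0 CPM in GFP+ and at 6.87, 0.74 and 12.8 CPM in GFP- ILCPs, with GFP- replicate 2 inside the GFP+ range. Of the 10 receptor and kinase genes 7 were higher and 3 lower. Jak1 and Jak2, the receptor-bound kinases, stood at 794 to 2115 and 283 to 661 CPM in GFP+ and at 807 to 1127 and 357 to 891 CPM in GFP- ILCPs. Stat3 and Ifnar2 ranged from 195 to 705 and 136 to 251 CPM in GFP+ and from 164 to 380 and 95.9 to 235 CPM in GFP- ILCPs.

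Ifngr1, the ligand-binding chain for interferon gamma, stood at 139, 317 and 125 CPM in GFP+ and at 110, 86.6 and 105 CPM in GFP- ILCPs, without overlap. Ifnar1, named because its values did not overlap either, stood at 111, 218 and 147 CPM against 99.1, 108 and 101 CPM. Their log2 fold changes were 0.95 ± 0.53 and 0.62 ± 0.48 (SE; edgeR adjusted p = 0.998 for both). Of the 10 receptor and kinase genes, these 2 lay wholly above and 0 wholly below. The shares over all genes tested were 3.17% and 6.01%. Of 13 genes that act upstream of interferon production 10 were higher and 3 lower. The 6 of highest mean CPM included Tmem173 (STING), at 108 to 159 against 135 to 238 CPM, Ticam1, at 45.0 to 145 against 56.2 to 70.7 CPM, and Ikbke, at 38.0 to 85.7 against 76.0 to 114 CPM. Tbk1, Mavs and Mb21d1 (cGAS) ranged from 66.2 to 115, 44.0 to 110 and 31.3 to 85.3 CPM in GFP+ and from 56.1 to 84.0, 59.2 to 85.2 and 27.1 to 53.3 CPM in GFP- ILCPs. All 6 overlapped between the fractions.

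Of 6 genes that restrain the pathway 4 were higher and 2 lower. Socs1 and Socs3, inhibitors of JAK kinases, ranged from 1.16 to 16.6 and 1.55 to 33.6 CPM in GFP+ and from 0.70 to 21.5 and 0.54 to 5.33 CPM in GFP- ILCPs. The phosphatase gene Ptpn6 stood at 47.3, 85.8 and 12.9 CPM against 60.6, 28.5 and 575 CPM, the last value standing alone in GFP- replicate 3. Ptpn11 ranged from 32.3 to 217 CPM against 57.5 to 86.7 CPM, Ptpn2 from 62.4 to 128 CPM against 49.8 to 89.2 CPM and Pias1 from 107 to 254 CPM against 115 to 206 CPM.

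Among 63 further ISGs tested, 34 were higher and 29 lower, and their median log2 fold change was 0.08. Those of highest level were B2m, at 1139 to 5937 against 1686 to 3701 CPM, Ly6e, at 2717 to 6100 against 1572 to 3473 CPM, and H2-K1, at 423 to 2126 against 505 to 997 CPM. Rnf213, H2-D1 and Ifi203 ranged from 566 to 1884, 182 to 1795 and 297 to 876 CPM in GFP+ and from 570 to 724, 420 to 624 and 330 to 1199 CPM in GFP- ILCPs. These 6 genes overlapped between the fractions, with the wider range in GFP+ ILCPs for all but Ifi203. At an unadjusted p under 0.05 edgeR gave 1 of the 63, Slfn2, a quiescence factor of lymphocytes. It stood at 52.7, 92.8 and 164 CPM in GFP+ and at 22.7, 14.8 and 22.4 CPM in GFP- ILCPs, all GFP+ values being above all GFP- values, and it did not pass the adjustment (log2 fold change 2.37 ± 0.64, SE; edgeR adjusted p = 0.998). In this list 3 genes, Slfn2, Irgm1 and Ifitm3, lay wholly above and 0 lay wholly below, where 3.17% and 6.01% of all genes tested did so.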

How the data were processed

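RNA was sequenced from 6 libraries, 3 of GFP+ and 3 of GFP- ILCPs. The authors deposited 1 table of 16383 genes with estimated counts per library. The deposited columns also hold the mean signal over libraries (counts divided by size factors), the log2 fold change, 2 score columns (its standard error and the Wald statistic) and p-values, per the file headers. Trimmomatic, Bowtie2, kallisto, DESeq2 and the build GRCm38 are listed, per the submitters' processing notes, and whether strand was kept is not given in the sources used here.

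Counts were rounded, filtered with filterByExpr, scaled by TMM and tested with edgeR 4.0.16 (robust quasi-likelihood, group only) in R 4.3.3, with Benjamini-Hochberg adjustment over all genes tested at 0.05. The test was checked on simulated data. DESeq2 1.42.0, the replicate block, other scalings and filters, and leaving out libraries were alternatives. Replicate numbers pair the fractions because, per the labels, same-numbered libraries come from the same pooled mice. The deviations of same-numbered libraries from their group means correlated at 0.14, -0.13 and -0.15. Pools of mice were the replicates. Intervals and floors (3 counts) cover counting error only where they come from single libraries. Exon lengths and positions came from GENCODE vM21 and promoters from RefSeq.

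The members and lists were chosen with earlier results of these data known. Named were the 12 ISGs of highest mean CPM, those with an unadjusted edgeR p under 0.05, those whose groups did not overlap and those with over 80% of their CPM in 1 library. From pathway lists, up to 6 genes of highest mean level and any with an unadjusted p under 0.05 were named. Ifnar1, Irgm1 and Ifitm3 were added for lack of overlap, after their values were seen. Some genes of these lists are not reported here.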

Additional observations from a re-analysis of the deposited data

How the results depend on the processing

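edgeR called 0 genes (394 had an unadjusted p under 0.05), whereas DESeq2, fitted on 16383 genes, called 60 and, with the replicate block, 153. Of the other pathway genes, DESeq2 with the replicate block called 2, Ifit1bl1 and Slfn1, both among the 64 further ISGs with a row. No alternative called an ISG of the set, and their smallest adjusted p was 0.139 (Ifit2, DESeq2 with the replicate block). Leaving out libraries moved the number of ISGs without overlap from 5 to between 7 and 13, as fewer libraries overlap less often by construction. Of the 32 ISGs, 15 kept the sign of their log2 fold change in all alternatives run. With the replicate block, which compares libraries of the same pool, the sign turned for Adar (0.065), Oas1a (0.046), Oas2 (-1.67), Irf7 (-0.26) and Ifi27 (-0.38), and in DESeq2 with the block for the same 5 (0.12, 0.039, -1.44, -0.20 and -0.33). Scaling by library totals turned Oas1a (0.0025), Stat2 (-0.016), Ifi27 (-0.29), Dtx3l (-0.21) and Psmb8 (-0.15). Oas1a also turned with DESeq2 size factors (0.00018) and with a mean of at least 50 counts (0.00027). With libraries left out, the log2 fold change ran from -0.43 to 0.44 for Adar, -2.99 to 0.86 for Oas1a, -7.60 to 3.62 for Oas2, -0.42 to 1.05 for Irf7, -1.06 to 0.47 for Ifi27, -0.12 to 0.34 for Dtx3l, -0.80 to 0.76 for Psmb8, -0.71 to 0.32 for Irf9, -0.79 to 0.33 for Nlrc5, -1.62 to 0.27 for Eif2ak2, -1.34 to 0.11 for Isg15, -0.70 to 1.59 for Isg20, -0.70 to 2.96 for Gbp2, -0.36 to 0.65 for Psmb9, -0.53 to 0.073 for Irf2 and -0.17 to 1.78 for Mx1. The cause of these changes was not tested. The narrowest 95% interval of an ISG was 2.00 log2 units wide (Ddx58), which limits what these libraries can show.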

Other observations

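The Schlafen genes, a family of ISGs that restrain lymphocyte growth and viral translation, were examined after their values were seen. Slfn1 stood at 74.8, 32.6 and 11.3 CPM in GFP+ and at 14.4, 6.02 and 0.39 CPM in GFP- ILCPs, higher in each of the 3 pools. Slfn5 stood at 86.0, 47.3 and 86.8 CPM against 49.7, 4.69 and 20.4 CPM, with GFP- replicate 1 inside the GFP+ range. Slfn8 stood at 119, 176 and 183 CPM against 99.9, 82.2 and 270 CPM, with the highest value in a GFP- library. edgeR's adjusted p was 0.998 for each, and edgeR with the replicate block called 0 of them. DESeq2 with the replicate block gave adjusted p = 0.0411 for Slfn1, 0.120 for Slfn2, 0.243 for Slfn5 and 0.990 for Slfn8, and without the block it gave Slfn1 an adjusted p of 0.705.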
